A study of Mus musculus with 12 samples.

Results

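The genes described here encode the conjugation enzymes of drug and hormone metabolism and the carboxylesterases, in mouse colon. Members were all genes of the colon tables whose symbol begins with Ugt, Sult, Gst plus a class letter, or Ces, each followed by a digit. They numbered 68 of the 30263 genes listed, with 15 UDP-glucuronosyltransferases (UGT), 12 sulfotransferases (SULT), 23 glutathione S-transferases (GST) and 18 carboxylesterases (CES). An average of at least 10 raw counts over the 6 colon libraries was reached by 47 of them, made up of 7 UGT, 7 SULT, 21 GST and 12 CES genes. These are called expressed below, and 45 of them also passed the filter on low counts and were tested among 17195 colon genes.

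RNA came from whole, snap-frozen colons of C57BL/6 mice labelled S1PR4 KO and of C57BL/6 mice labelled wild type (WT), with 3 libraries a group. S1PR4 is a receptor for the lipid sphingosine 1-phosphate that is known mainly from immune cells. Both groups had received azoxymethane (10 mg/kg), a carcinogen, and repeated dextran sulfate sodium (0.5% in drinking water), which injures the colon lining, and were taken at day 84. The same study also sorted CD8+ T cells from PyMT mammary tumors, but the tables of those cells list no member and were not used. The labels speak of triplicates without saying whether each was a separate animal, so p-values measure only the spread between these samples.

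UGT, SULT and GST enzymes attach a sugar acid, a sulfate group or glutathione to hormones, bilirubin, bile acids, drugs and reactive products of oxidation, which makes them easier to excrete. Carboxylesterases split esters and amides, including many prodrugs and stored or dietary lipids, and often act one step earlier. In the intestine these enzymes sit mostly in the epithelium, and several are known targets of receptors that sense foreign compounds.

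S1pr4 itself went against the labels. Its raw counts were 154, 162 and 118 in colons labelled KO, against 61, 47 and 25 in colons labelled WT. Mean levels were 19.1 ± 2.73 CPM in the KO group and 5.54 ± 2.14 CPM in the WT group (SD, n = 3 each), where CPM is the count on a common library size after TMM scaling. The log2 difference, KO over WT as everywhere below, was 1.78 ± 0.34 (SE), with an adjusted p of 0.829 by edgeR's quasi-likelihood test and of 0.00430 by DESeq2. KO and WT below therefore name libraries by their labels. Libraries KO 2, KO 3 and WT 1 carried Xist at 515 CPM or more, while KO 1, WT 2 and WT 3 carried Y-linked Ddx3y at 63.3 CPM or more, so the sexes were unequally spread over the groups. WT 1 was the only Xist-bearing WT library and KO 1 the only Y-bearing KO library. In the differences given below within either set, sex cannot be told apart from that single library. Total counts ran from 7304082 to 8652561.

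The promoters of the 3 expressed Ugt1a genes and the 3 Gstp genes are printed because each set lies in 1 gene cluster while only 1 gene of each set had KO and WT libraries that did not overlap. Each sequence is the 250 bases before the RefSeq start, 5′ to 3′ on the gene's strand, in build GRCm38.p6. Capitals mark matches on either strand to 4 motifs: TGACNNNGC (antioxidant response element core), GCGTG (core of the aryl hydrocarbon receptor site), TGANTCA (AP-1 site) and GTTAAT (HNF1 site core).
Ugt1a7c, chr1:88094751-88095000, plus strand: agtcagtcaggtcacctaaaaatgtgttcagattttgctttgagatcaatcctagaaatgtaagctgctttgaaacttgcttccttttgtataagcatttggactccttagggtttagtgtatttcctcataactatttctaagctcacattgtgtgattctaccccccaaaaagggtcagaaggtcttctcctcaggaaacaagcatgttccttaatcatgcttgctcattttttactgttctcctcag
Ugt1a6a, chr1:88134559-88134808, plus strand: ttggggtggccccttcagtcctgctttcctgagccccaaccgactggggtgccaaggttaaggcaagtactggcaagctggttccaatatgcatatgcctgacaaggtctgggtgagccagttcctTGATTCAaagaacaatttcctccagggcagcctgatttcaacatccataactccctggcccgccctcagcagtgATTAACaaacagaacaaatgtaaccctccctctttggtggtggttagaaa
Ugt1a1, chr1:88211709-88211958, plus strand: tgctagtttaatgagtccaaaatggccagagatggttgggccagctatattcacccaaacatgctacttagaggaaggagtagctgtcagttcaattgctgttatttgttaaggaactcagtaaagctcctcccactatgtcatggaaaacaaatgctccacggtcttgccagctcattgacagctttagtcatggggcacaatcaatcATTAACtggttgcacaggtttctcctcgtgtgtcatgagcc
Gstp1, chr19:4037913-4038162, minus strand: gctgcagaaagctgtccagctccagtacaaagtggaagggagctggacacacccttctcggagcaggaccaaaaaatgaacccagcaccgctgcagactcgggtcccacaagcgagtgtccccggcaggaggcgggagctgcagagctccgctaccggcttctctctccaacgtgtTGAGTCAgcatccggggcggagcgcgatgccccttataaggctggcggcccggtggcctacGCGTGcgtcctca
Gstp2, chr19:4042222-4042471, minus strand: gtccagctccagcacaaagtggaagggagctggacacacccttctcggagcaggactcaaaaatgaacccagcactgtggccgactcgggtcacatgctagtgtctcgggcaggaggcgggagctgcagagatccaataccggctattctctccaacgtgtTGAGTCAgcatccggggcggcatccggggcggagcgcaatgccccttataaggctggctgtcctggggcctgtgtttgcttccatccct
Gstp3, chr19:4059448-4059697, minus strand: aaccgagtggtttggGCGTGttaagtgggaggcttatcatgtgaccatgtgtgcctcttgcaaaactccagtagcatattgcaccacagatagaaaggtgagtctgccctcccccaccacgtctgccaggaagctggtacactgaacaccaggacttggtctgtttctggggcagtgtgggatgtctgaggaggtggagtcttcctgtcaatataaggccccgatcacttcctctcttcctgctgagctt

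The 3 Ugt1a promoters shared between 49.8% and 52.3% of aligned bases pairwise. Those of Gstp1 and Gstp2 were 78.5% identical, and that of Gstp3 matched them at 50.7% and 51.9%. Ugt1a1 held the HNF1 site core 41 bases before its start and Ugt1a6a held it at 50 bases, on the minus strand in both, while Ugt1a7c held none of the 4 motifs. The AP-1 site stood 74 bases before the start of Gstp1, 89 before that of Gstp2 and 124 before that of Ugt1a6a. GCGTG lay 13 bases before the start of Gstp1 and 235 before that of Gstp3, whose window held no AP-1 letters. RefSeq windows were found for 40 of the 47 expressed members, 51 windows in all. The antioxidant core was in 5.88% of these windows and in 10.2% of all 32851 windows, GCGTG in 17.6% and 28.2%, the AP-1 site in 11.8% and 6.75%, and the HNF1 site core in 9.80% and 6.43%. These matches describe letters only.

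Levels spanned a wide range within each family. Divided by annotated exon length, Sult1a1, which sulfates phenols, had the highest level of all members at 59.6 CPM per kilobase. It was followed by Gsto1, an omega-class enzyme that reduces dehydroascorbate, at 53.1, by Ugt2b34 at 51.3 and by the carboxylesterase Ces2e at 43.8 CPM per kilobase. Ugt2b34 alone gave 62.3% of the summed CPM of the UGT family. Ugt1a7c, at 14.5 CPM per kilobase, stood above the other expressed Ugt1a genes, Ugt1a1 at 1.75 and Ugt1a6a at 1.03. These lengths include exons shared between Ugt1a genes, and how reads in them were counted is not given. Only 385 of 2224 exon bases of Ugt1a1 belong to no other gene, against 1915 of 4219 for Ugt1a7c. If only reads in unshared exons were counted, the gap between Ugt1a7c and Ugt1a1 would be narrower. The remaining 21 members averaged under 10 counts, none was tested, and they included all of Ces3a, Ces3b, Ces5a, Ugt3a2, Ugt2a3, Sult1e1 and Gstt4.

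**Figure D1:**
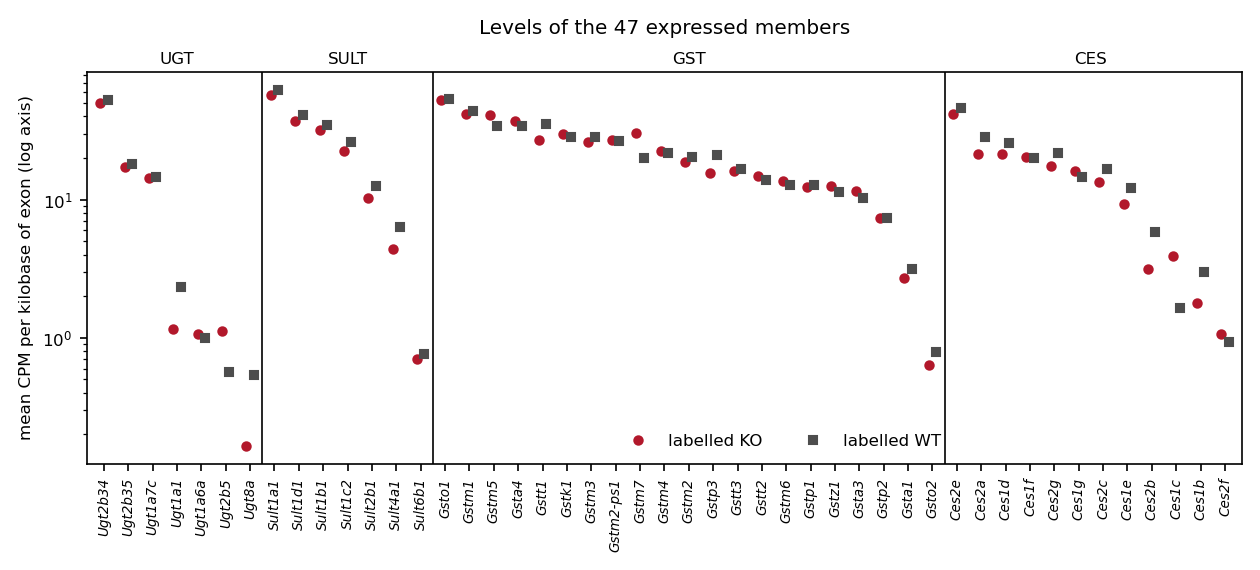
Mean level of each of the 47 expressed members in colons labelled KO (red circles) and labelled WT (grey squares), as CPM per kilobase of exon on a log axis, by family and from high to low. Sult1a1, Gsto1, Ugt2b34 and Ces2e lead their families, and the groups lie close together for most members.

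No member passed the test between the groups. Of 17195 colon genes, 0% were called by edgeR's quasi-likelihood test at a Benjamini-Hochberg adjusted p of 0.05, and 0 of 45 members were. DESeq2 called 14 genes (0.0655% of 21389) and no member. At an unadjusted p of 0.05 edgeR passed 2 members, Ugt1a1 and Gstp3, both lower in KO, beside 870 of all genes (5.06%, with 2.62% higher and 2.44% lower in KO), and DESeq2 passed 4 members (Ugt1a1, Ces2a, Ces2b and Gstm7) beside 1024 of all 30189 genes it gave a p (3.39%). The 3 KO libraries did not overlap the 3 WT libraries for 5 of 45 members, 11.1%, against 9.58% of all genes, a share close to the background. KO lay above WT for 2 members, Gsta3 and Gstm7 (4.55% of all genes), and below WT for 3, Ugt1a1, Gstp3 and Ces2a (5.04% of all genes). Means were lower in KO for 29 of 45 members (64.4%), against 51% of all genes, and the median log2 difference was -0.07, against -0.0045 over all genes. This tilt depended on single libraries and on the Xist split: 24 of 45 members were lower, with a median of -0.0073, with Xist status as a covariate, and 24 of 45 with a median of -0.0078 without WT 2. Without WT 1, 35 of 45 were lower, with a median of -0.15. The median was -0.0081 within the Xist-bearing libraries, where WT 1 alone stands for WT, and -0.07 within the Y-bearing ones, where KO 1 alone stands for KO. For 36 of 45 members (80%) the 95% interval lay within a 2-fold change either way, against 71.1% of all genes.

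**Figure D2:**
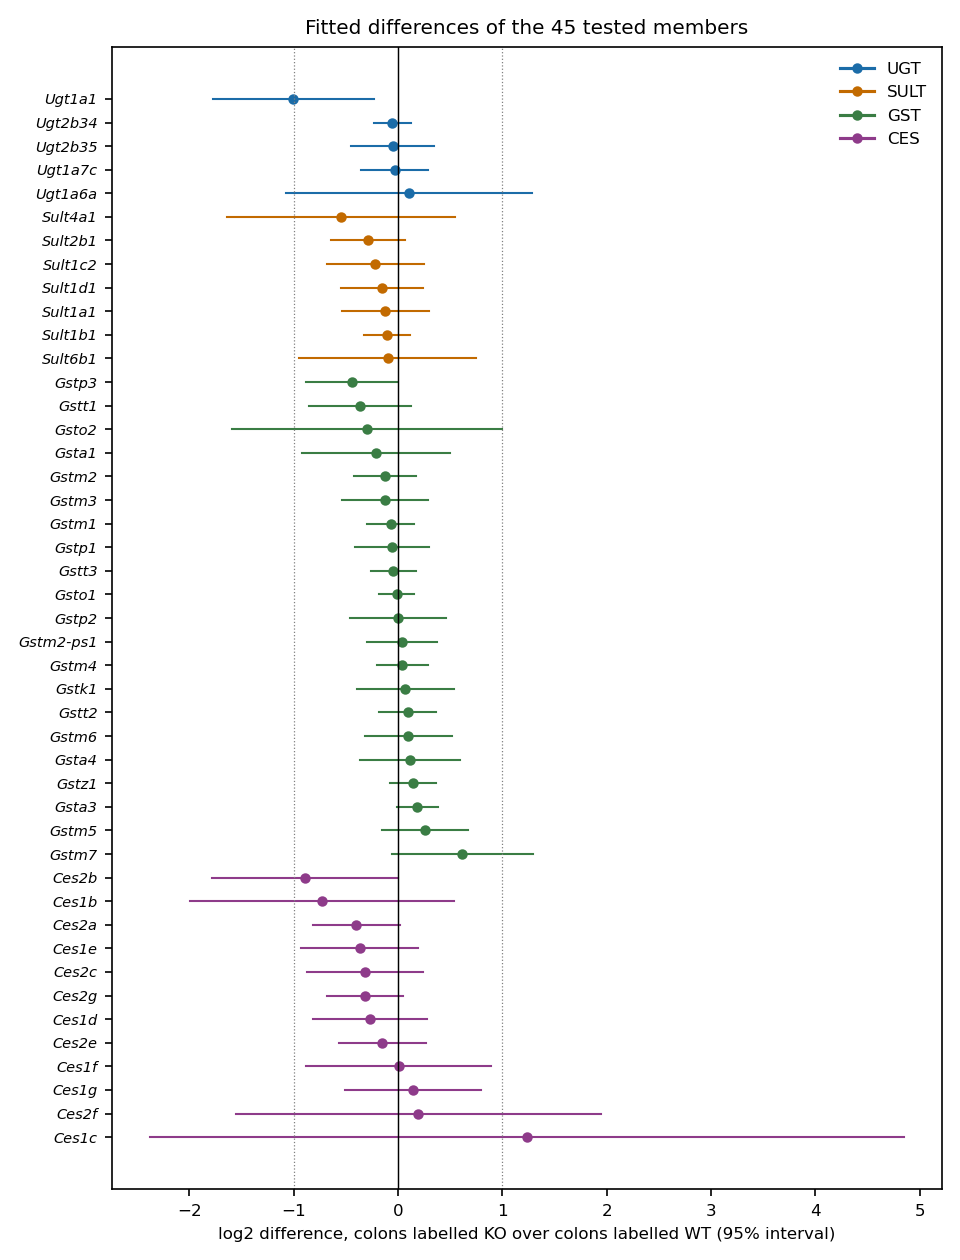
Fitted log2 difference, labelled KO over labelled WT, of the 45 tested members (points) with 95% intervals (lines), by family and ordered by size, with dotted lines at a 2-fold change. The intervals of Ugt1a1 (-1.78 to -0.23) and Gstp3 (-0.88 to -0.01) leave out 0, and that of Ces1c is the widest.

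Among the UDP-glucuronosyltransferases, the 3 abundant genes had 95% intervals within a 2-fold change either way, and the scarce Ugt1a1 had a fitted KO level of 0.499 of its WT level without passing the test. Ugt1a1, which conjugates bilirubin, was at 2.68, 3.44 and 1.63 CPM in KO colons, against 5.91, 4.81 and 4.88 CPM in WT colons. All 3 KO libraries lay below all 3 WT libraries, on raw counts of 21, 26 and 12 in KO and 50, 36 and 39 in WT. Its log2 difference of -1.004 ± 0.32 (SE) had a 95% interval from -1.78 to -0.23 and an adjusted p of 0.829 by edgeR's quasi-likelihood test. The difference was -1.22 within the Xist-bearing libraries, with 1 WT library among them, and -0.80 within the Y-bearing ones, with 1 KO library among them.

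Ugt2b34 (ENSMUSG00000029260, chromosome 5, 86889767 to 86906937), of the subfamily that glucuronidates steroids and drugs, had 222, 210 and 219 CPM in KO colons, against 208, 241 and 227 CPM in WT colons. The groups overlapped, and the log2 difference of -0.05 had a 95% interval from -0.23 to 0.12. Its neighbour Ugt2b35 averaged 58.2 ± 11.1 CPM in KO and 60.3 ± 5.89 CPM in WT (SD, n = 3 each), with a 95% interval of the log2 difference from -0.45 to 0.35. The family median was -0.05, with 1 of 5 tested members higher in KO, and stood at 0.04 within the Xist-bearing libraries and -0.08 within the Y-bearing ones. Ugt2b5 and Ugt8a, expressed but not tested and named here after their values were seen, each drew most of their counts from 1 library. Ugt8a, the galactosyltransferase of myelin lipids, had 5, 4 and 8 counts in KO and 47, 5 and 9 in WT, and Ugt2b5 had 2, 40 and 5 in KO and 9, 13 and 3 in WT.

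The Ugt1a genes are not separate transcription units in their whole length. The 7 listed Ugt1a genes lie on chromosome 1 between 88070800 and 88220002 (GRCm38, plus strand), each with a first exon of its own spliced to shared downstream exons. Only 385 of the 2224 exon bases of Ugt1a1 (ENSMUSG00000089960, 88211959 to 88218997) belong to no other gene, against 2142 of 4312 for Ugt1a6a and 1915 of 4219 for Ugt1a7c. The annotation of Ugt1a7c ends at 88220002, past the end of Ugt1a1 and Ugt1a6a at 88218997. Its unshared bases therefore need not all lie in its first exon. How reads in the shared exons were counted is not given in the sources used here, so the level of each Ugt1a gene is uncertain. Ugt1a7c, related to the human UGT1A enzymes of the gut, took 88.6%, 84.9% and 93.1% of all Ugt1a counts in KO, against 85.0%, 87.3% and 85.8% in WT. It was at 63.7, 58.6 and 59.0 CPM in KO and 50.9, 69.7 and 65.1 CPM in WT, with WT libraries on both sides of the KO ones. Summed over the locus, Ugt1a counts averaged 68.1 ± 4.36 CPM in KO and 71.9 ± 10.6 CPM in WT (SD, n = 3 each). The 95% interval of the summed log2 difference was -0.38 to 0.23. Because Ugt1a7c gave most of that sum, the sum cannot show whether Ugt1a1 differed. Ugt1a6a, which prefers flat phenols, had a 95% interval from -1.07 to 1.29 and is 98.4% identical to Ugt1a6b over the coding sequence.

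**Figure D3:**
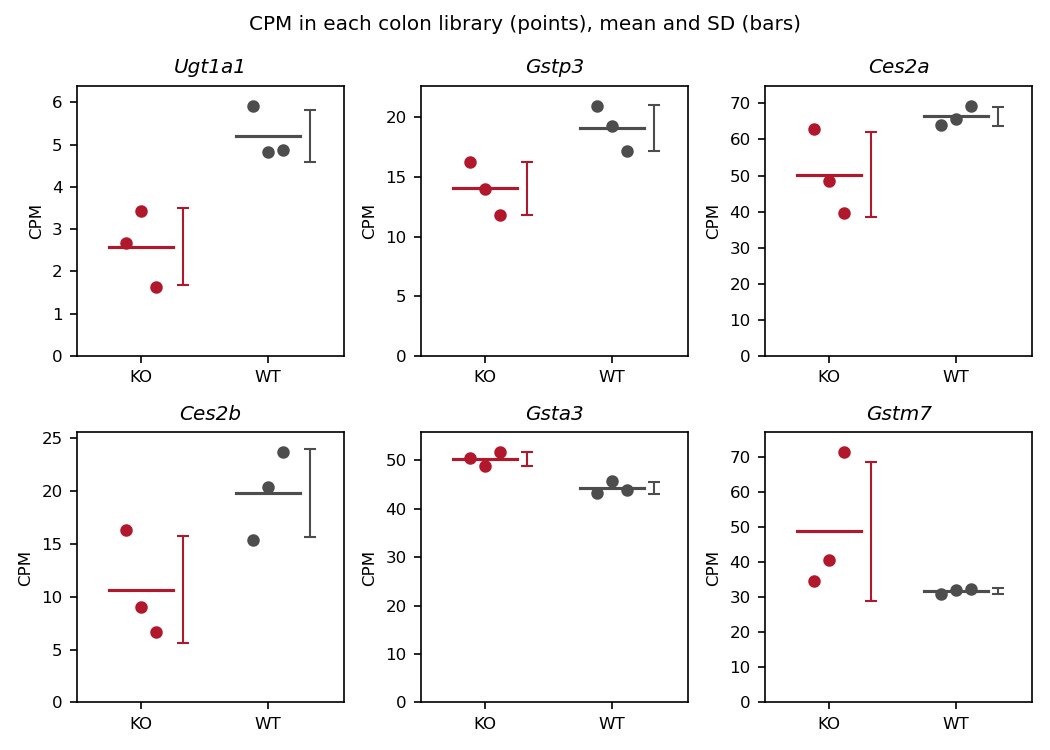
CPM per library (points, replicates 1 to 3 from left to right) with mean and SD, labelled KO left and labelled WT right, for the 5 members whose groups did not overlap and Ces2b. Ugt1a1 sits at 1.63 to 3.44 CPM in KO and 4.81 to 5.91 CPM in WT, and the separation of Gstm7 rests on narrow WT values.

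All 7 tested sulfotransferases had a lower mean in KO, none passed the test, and their median log2 difference was -0.16. Sult1b1, which sulfates thyroid hormone and other phenols, had 94.9, 90.7 and 80.5 CPM in KO colons, against 89.9, 103 and 93.9 CPM in WT colons. The KO range reached into the WT range, and the 95% interval of the log2 difference was -0.33 to 0.11. Sult1d1, which sulfates dopamine and other catechols in mice, had 103, 101 and 69.4 CPM in KO and 95.8, 111 and 97.3 CPM in WT. Here KO 1 and KO 2 lay within the WT range and KO 3 alone lay under it. Sult1a1 also had only KO 3 under the WT range, with 100.5, 85.7 and 71.8 CPM in KO against 75.8, 106 and 99.9 CPM in WT and a log2 difference of -0.12 ± 0.17 (SE). Sult2b1, which sulfates cholesterol and pregnenolone, had the smallest p of the family, with 40.6 ± 3.65 CPM in KO and 49.5 ± 7.86 CPM in WT (SD, n = 3 each). Its log2 difference of -0.29 had a 95% interval from -0.64 to 0.07. Sult1c2 had a log2 difference of -0.22 ± 0.19 (SE).

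Library KO 3 was the lowest of the 6 libraries for 6 of the 7 sulfotransferases, and without it the family median was -0.07 with 6 of 7 members lower. Within the 3 Xist-bearing libraries the median was -0.07 and within the 3 Y-bearing ones -0.03. Sult4a1, known mainly from neurons, had 18.5, 8.99 and 5.31 CPM in KO and 16.9, 13.5 and 17.6 CPM in WT. Markers of enteric neurons and glia, all 7 of which were detected in every library, summed to 59.2 to 195.6 CPM in KO and 142 to 193 CPM in WT and were also lowest in KO 2 and KO 3. Their part in the Sult4a1 values was not tested.

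The glutathione S-transferases showed no common direction, with 11 of 21 tested members higher and 10 lower in KO and a median log2 difference of 0.00059. The median was 0.14 within the Xist-bearing libraries and -0.07 within the Y-bearing ones. Intervals within a 2-fold change either way were found for 19 of the 21. The omega-class Gsto1 was at 101, 110.3 and 109 CPM in KO colons, against 111, 111 and 102 CPM in WT colons, and its 95% interval of -0.18 to 0.15 was the narrowest among the named members. The mu-class Gstm1, a broad detoxifying enzyme, was at 65.2, 61.5 and 56.9 CPM in KO and 59.5, 67.1 and 66.5 CPM in WT, with overlapping groups and a log2 difference of -0.07 ± 0.09 (SE). Gstz1, the maleylacetoacetate isomerase of tyrosine breakdown, had a log2 difference of 0.14 ± 0.09 (SE).

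The pi-class genes lie in a row on chromosome 19 between 4035407 and 4059569. Gstp3 (ENSMUSG00000058216) had 16.2, 14.0 and 11.8 CPM in KO, against 20.9, 19.3 and 17.1 CPM in WT, so every KO library lay below every WT library. Its log2 difference was -0.45 ± 0.18 (SE), with a 95% interval from -0.88 to -0.010 and an adjusted p of 0.829 by edgeR's quasi-likelihood test. Gstp1 and Gstp2, 98.1% identical over the coding sequence and so read best as a sum, totalled 27.1 ± 0.682 CPM in KO and 27.9 ± 3.28 CPM in WT (SD, n = 3 each). The log2 difference of that sum was -0.04, with a 95% interval from -0.36 to 0.27, which overlaps that of Gstp3. The difference between Gstp3 and its neighbours was not tested.

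Both members with KO above WT in every library were glutathione S-transferases. Gsta3, an alpha-class enzyme that conjugates aflatoxin epoxide in mice, had 50.4, 48.8 and 51.6 CPM in KO and 43.3, 45.7 and 43.8 CPM in WT. The separation was small, with a log2 difference of 0.18 and a 95% interval from -0.01 to 0.38. Gstm7 had 34.5, 40.5 and 71.2 CPM in KO and 30.9, 32.1 and 32.3 CPM in WT, so that KO 3 stood far above the other 5 libraries. Its log2 difference was 0.62, with a 95% interval from -0.055 to 1.29, and 0.25 without KO 3. Crypt stem cell markers, 5 of 5 detected in every library, summed to 252, 467 and 609 CPM in KO and 349.9, 266 and 249 CPM in WT and were also highest in KO 3. Their part in the Gstm7 values was not tested. Gstm5, another mu-class gene, was also highest in KO 3, at 61.0 CPM, with a log2 difference of 0.26 ± 0.17 (SE). Gstt1, a theta-class enzyme of dihalomethane metabolism, had 53.4, 38.0 and 32.7 CPM in KO and 47.1, 54.3 and 58.6 CPM in WT, a log2 difference of -0.37 ± 0.20 (SE). Its cluster lies 5.66 Mb from S1pr4 on chromosome 10.

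**Figure D4:**
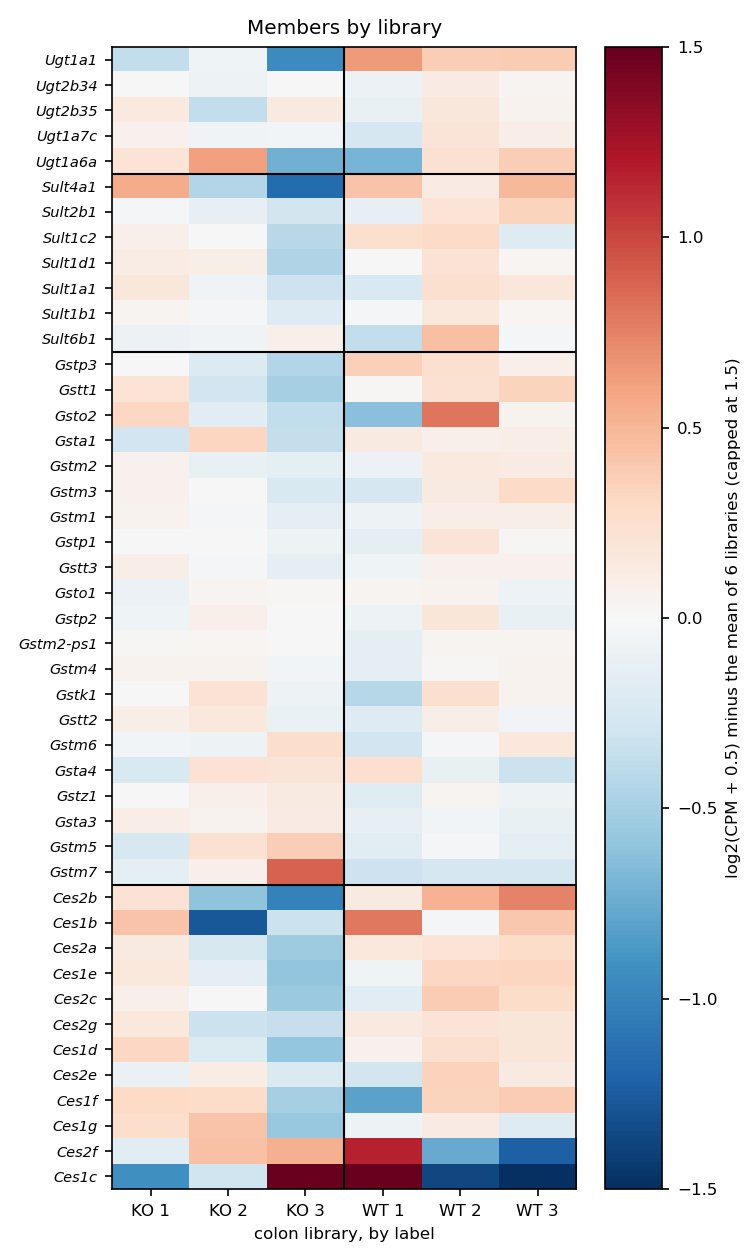
Deviation of each tested member from its own mean over 6 libraries, as log2(CPM + 0.5) and capped at 1.5, with libraries labelled KO left of those labelled WT and black lines between families. Library KO 3 is blue for most sulfotransferases and carboxylesterases and library WT 1 for many glutathione S-transferases, while WT 2 is mostly red.

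The carboxylesterases had the lowest family median, -0.29, with 8 of 12 tested members lower in KO and none called. Within the Xist-bearing libraries the median was -0.45, with 3 of 12 members higher. Within the Y-bearing ones it was -0.04, with 5 of 12 higher, above the UGT (-0.08) and GST (-0.07) medians there. WT 1 was the only WT library in the Xist-bearing set and KO 1 the only KO library in the Y-bearing set. The family median was -0.17 with Xist status as a covariate. In the Ces2 cluster (chromosome 8, 104734003 to 105021178), whose human counterpart CES2 is the main intestinal carboxylesterase, 5 of 6 tested members were lower, with a median of -0.32. Ces2a had 62.8, 48.4 and 39.5 CPM in KO colons, against 64.1, 65.8 and 69.3 CPM in WT colons. All KO libraries lay below the WT ones, KO 1 by a small margin. The log2 difference was -0.40 ± 0.17 (SE), with a 95% interval from -0.82 to 0.016 and an adjusted p of 0.829 by edgeR's quasi-likelihood test. Ces2b had 16.3, 8.99 and 6.67 CPM in KO and 15.4, 20.3 and 23.6 CPM in WT, with KO 1 above WT 1. Its log2 difference of -0.89 ± 0.37 (SE) had a 95% interval from -1.78 to 0.003. Because Ces2b and Ces2c are 91.3% identical over the coding sequence, their counts were also added, which gave a log2 difference of -0.49 with a 95% interval from -1.08 to 0.10.

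Ces2g had 77.0, 54.9 and 54.2 CPM in KO and 75.5, 78.8 and 77.8 CPM in WT, with KO 1 inside the WT range and a log2 difference of -0.32 ± 0.15 (SE). Ces2e, the carboxylesterase with the highest level per kilobase, had 109, 127 and 101 CPM in KO and 96.9, 148 and 128 CPM in WT. Its values overlapped over most of their range, and the 95% interval was -0.57 to 0.26. The Ces1 cluster (chromosome 8, 93056728 to 93379725) had 3 members higher and 3 lower, with a median of -0.13. Ces1d, a triacylglycerol hydrolase of liver and fat, had 67.4, 47.0 and 36.2 CPM in KO and 56.5, 63.9 and 61.4 CPM in WT, so KO libraries lay on both sides of the WT ones. Adipocyte markers, 4 of 4 detected in every library, summed to 84.3, 39.7 and 50.1 CPM in KO and 42.3, 36.5 and 38.9 CPM in WT. They were likewise highest in KO 1, but in KO 3, the lowest library for Ces1d, they lay above every WT library. Their part in the Ces1d values was not tested. Ces1e had 25.5, 20.6 and 14.98 CPM in KO and 21.9, 28.4 and 28.8 CPM in WT, a log2 difference of -0.37 ± 0.23 (SE) that ran from -0.57 without KO 1 to -0.18 without KO 3. Ces1b had 5.87, 1.45 and 3.27 CPM in KO and 7.69, 4.15 and 5.75 CPM in WT, a log2 difference of -0.73 ± 0.52 (SE) that ran from -1.31 without KO 1 to -0.36 without KO 2. In both, KO 1 lay within the WT range. Ces1c, a carboxylesterase secreted into mouse plasma and named here after its values were seen, had 1.28, 2.25 and 23.8 CPM in KO and 10.3, 0.802 and 0.375 CPM in WT. Library KO 3 alone held most of its KO counts and WT 1 most of its WT counts.

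**Figure D5:**
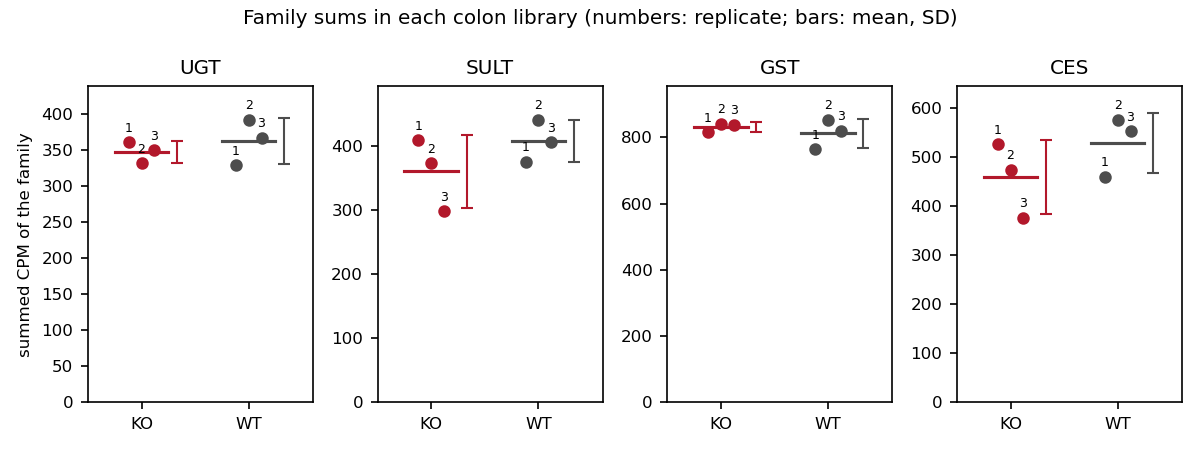
Summed CPM of all members of each family in each colon library (points, with replicate numbers), with mean and SD, labelled KO left and labelled WT right. SULT and CES sums are lowest in KO 3 (298.5 and 377 CPM), and KO and WT ranges overlap in all 4 families.

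Summed over all members of a family, the groups overlapped throughout. UGT transcripts summed to 347.7 ± 14.7 CPM in KO and 363 ± 31.5 CPM in WT, and GST transcripts to 832 ± 14.1 CPM in KO and 813 ± 44.5 CPM in WT (SD, n = 3 each). SULT transcripts summed to 360.2 ± 56.4 CPM in KO and 407 ± 32.6 CPM in WT, and CES transcripts to 459 ± 76.0 CPM in KO and 529.7 ± 61.4 CPM in WT (SD, n = 3 each). In these last families KO 1 was highest and KO 3 lowest of the KO libraries, with SULT sums of 409, 373 and 298.5 CPM and CES sums of 527, 475 and 377 CPM in KO 1, KO 2 and KO 3. In WT, library 1 was lowest in every family.

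Single libraries were lowest or highest for many members, though not evenly over the families, a count made after the values were seen. KO 3 was the lowest of the 6 libraries for 21 of 45 members (46.7%), against 23.9% of all tested genes, and WT 1 for 16 (35.6%), against 19.1%. By family, KO 3 was lowest for 6 of 7 SULT and 7 of 12 CES members, but for 6 of 21 GST and 2 of 5 UGT members. WT 1 was lowest for 11 of 21 GST and 2 of 5 UGT members, but for 1 of 7 SULT and 2 of 12 CES members. WT 2 was the highest for 19 of 45 members (42.2%), against 15.4% of all tested genes. Absorptive colonocyte markers, 10 of 10 detected in every library, summed to 1321, 1398 and 1054 CPM in KO and 1018, 1538 and 1528 CPM in WT. The sums of KO 3 and WT 1 were lowest here as well, though by gene KO 3 was lowest for 6 of 10 and WT 1 for 2. General epithelial markers, 7 of 7 detected, summed to 1578, 1676 and 1649 CPM in KO and 1506, 1705 and 1596 CPM in WT. WT 1 was lowest for all 7, KO 3 for 0, and WT 2 was highest for 5. Some of these markers, such as Cdh1 (97.8 CPM per kilobase) and Krt20 (96.2), were denser than any member, so their differences may be compressed. In whole tissue, fewer cells of a type and less RNA per cell cannot be told apart, and the part of either in the members' values was not tested. WT 1 also carried 545 CPM of squamous epithelium markers, against at most 57.5 CPM in each of the other 5 libraries, where Krt1 and Krt5 were at 0.38 CPM or less. WT 2 carried the hydrolase Cel at 63.4 CPM, against at most 1.63 CPM in each other library. Cel was listed among the other drug hydrolases, was not tested and is named here after its values were seen. Smooth muscle markers, 8 of 8 detected, summed to 1114 to 1889.8 CPM in KO and 1671 to 2006 CPM in WT, with KO 3 lowest. Of liver markers, Serpina1a had 0 counts in every library but KO 1, where it had 0.13 CPM, and the 3 others did not share a direction. Alb was at 12.1 to 49.2 CPM in KO and 5.91 to 11.9 CPM in WT, Ttr at 34.0 to 43.7 CPM in KO and 46.8 to 52.8 CPM in WT, and Apob at 165 to 348 CPM in KO and 231 to 293 CPM in WT.

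The 3 members with the smallest p were set beside the other tested genes by the correlation of log2 values over the 6 libraries. Genes without a symbol or with a provisional one, such as Gm plus digits or a Rik ending, were left out. These correlations describe 6 points that share depth and library effects, and are the highest out of all remaining genes. Choosing members by the smallest p between KO and WT favours matches with genes split the same way. Ugt1a1 was closest to Osgin1 (Pearson r = 0.988), Tfeb (0.986) and Crtc2 (0.981). Gstp3 was closest to Bnipl (0.994), Ralgds (0.991) and Slc30a1 (0.988), and Ces2b to Arhgef18 (0.999), Tbc1d2 (0.997) and Slc40a1 (0.995). Among members, Ces2b was most like Gstt1 (0.989) and Ces2a (0.977), and Ugt1a1 was most like Gstp3 (0.903).

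Genes of cosubstrate supply, export pumps, regulators, their target genes and other hydrolases gave 0 calls by edgeR or DESeq2. Their lowest adjusted p was 0.829 by edgeR's quasi-likelihood test, and those named mostly had the smallest p of their list. KO and WT libraries did not overlap for 1 of 9 sulfate genes, 1 of 14 glutathione genes and 1 of 6 membrane enzymes. The same held for 1 of 15 regulators and 1 of 10 targets of NRF2, a stress factor. The other lists held 0, and the share over all genes was 9.58%. Of 7 genes listed for UDP-glucuronate supply and release, 4 were higher and 3 lower. The median log2 difference was 0.08 (0.21 within the Xist-bearing libraries and -0.03 within the Y-bearing ones). That list was broad, since Slc35a1, Slc35b1 and Ugcg are not established in UDP-glucuronate supply, and its median is the value of Slc35a1. The largest difference was that of Gusb, the glucuronidase that removes the sugar acid again (0.28 ± 0.12 SE), and Ugp2 stood at 0.10. Ugdh (-0.09) and Slc35d1 (-0.05), named here after their values were seen, were lower. Of the 9 tested genes of sulfate and PAPS supply, 7 were lower, with a median of -0.05. Papss1, which makes the sulfate donor PAPS, had 169.5, 147 and 161 CPM in KO, against 176, 183 and 174 CPM in WT, so the KO libraries lay below the WT ones. The sulfate transporter Slc26a2 had 632, 468 and 399 CPM in KO and 533, 653 and 656 CPM in WT. Its log2 difference of -0.30 ± 0.18 (SE) ran from -0.50 without KO 1 to -0.15 without KO 3.

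Of 14 genes of glutathione supply and turnover, 9 were higher in KO, with a median of 0.04 that was 0.23 within the Xist-bearing libraries and -0.07 within the Y-bearing ones. Gclm, the modifier subunit of the enzyme that starts glutathione synthesis, had 122, 135 and 139.8 CPM in KO, against 111, 119 and 114 CPM in WT. The groups did not overlap, and its log2 difference was 0.21 with a 95% interval from 0.03 to 0.38. The cystine carrier Slc7a11 had 15.1, 32.8 and 79.9 CPM in KO and 26.1, 13.9 and 11.3 CPM in WT, with the highest value in KO 3. Of the 6 membrane-bound glutathione enzymes and relatives, 3 were higher and 3 lower with a median of 0.07, and among them Alox5ap, which presents arachidonate for leukotriene synthesis, had KO above WT (log2 difference 0.56 ± 0.25 SE), while Ltc4s, which makes leukotriene C4, stood at -0.43 ± 0.31 (SE).

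Of 9 listed export pumps, not all of them known for conjugates, 4 were higher and 5 lower, with a median of -0.09. Abcc2, which exports glucuronides and glutathione conjugates, had 12.8, 55.9 and 165 CPM in KO and 35.3, 12.3 and 13.3 CPM in WT, so that KO 2 and KO 3 lay above all WT libraries and KO 1 among them. Abcc4 had 98.6, 134 and 194 CPM in KO and 112, 91.1 and 94.3 CPM in WT. Both were highest in KO 3, the library in which sulfotransferases and carboxylesterases were lowest.

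Of 15 receptors and regulators of these enzymes, 12 were lower in KO (80%, against 51% of all genes), with a median of -0.10. KO 3 was the lowest library for 9 of the 15 (60%), against 23.9% of all tested genes. WT 2 was the highest for 7 (46.7%), against 15.4% of all tested genes. Rxra, the shared partner of many nuclear receptors, had 199.5, 191 and 167 CPM in KO, against 212, 227 and 231 CPM in WT, a log2 difference of -0.27 ± 0.08 (SE) with separate groups, and Ppard stood at -0.18 ± 0.09 (SE). Of 10 targets of the stress factor NRF2 outside the members, 7 were higher, with a median of 0.07. Within the Xist-bearing libraries 9 of 10 were higher, with a median of 0.18, and within the Y-bearing ones 1 of 10, with a median of -0.10. They did not move as one, since the malic enzyme Me1 stood at 0.84 ± 0.37 (SE) and Osgin1 at -0.32 ± 0.10 (SE). Osgin1 had 47.5, 48.9 and 40.7 CPM in KO, against 58.4, 57.5 and 55.3 CPM in WT. Of 5 targets of the aryl hydrocarbon receptor, 4 were lower, with a median of -0.41 that was -0.45 within the Xist-bearing libraries and 0.18 within the Y-bearing ones. Cyp1a1, its best known target, was barely detected at 0.529 to 1.66 CPM in KO and 1.42 to 2.13 CPM in WT. Tiparp, another target, stood at -0.20 ± 0.12 (SE). Of 8 tested other drug hydrolases and amine oxidases, 5 were lower, with a median of -0.09, Ephx2 at -0.20 ± 0.13 (SE) and Aoc1 at -0.13 ± 0.09 (SE).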

How the data were processed

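RNA sequencing of 6 colons (3 labelled KO, 3 labelled WT) was analysed, grouped by titles and genotype labels. The deposited tables hold unnormalised whole-number counts of reads for each Ensembl gene, per the file headers. Per the submitters' processing notes, the authors used HTSeq, RSEM, STAR, TopHat2 and DESeq2 on builds GRCm38 and mm10; roles, versions, strand use, filters, removal of duplicate reads and the handling of shared exons are not given in the sources used here. Overlapping genes and antisense partners therefore cannot be separated. Of 30263 genes, 30212 (99.8%) and all 68 members matched GENCODE vM21.

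After the filterByExpr filter and TMM scaling, a robust quasi-likelihood F test was run in edgeR 4.0.16 under R 4.3.3, with Benjamini-Hochberg adjustment over all 17195 tested genes. DESeq2 1.42.0 was an alternative tool, and no column was left unmapped (0). The highest count per exon base over all genes was 0.919 to 0.973 in every library. The 6 members above 0.3 (Sult1a1, Gsto1, Ugt2b34, Ces2e, Gstm1 and Sult1d1) may have compressed folds. Some epithelial and colonocyte markers lay nearer this ceiling than any member, so their differences may be compressed more. Replicate pairs differed by at least 5.58 times sampling variance. Copies with over 90% coding identity were also summed. The fit was tested on simulated data. Intervals cover only counting error and variation among these libraries. Promoter windows came from RefSeq (GRCm38.p6).

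Members, gene lists and the choice of named genes were made with earlier results of these data known. Named by rule were, in each family, the 5 expressed members with the smallest p and the 3 with the highest CPM per kilobase of exon, every expressed Ugt1a gene, and the 2 genes with the smallest p of each related list. Other genes are described only after their values were seen. Alternatives were DESeq2 size factors (RLE) in edgeR, no low-count filter, a mean of at least 50 counts, DESeq2, a replicate block, Xist status as a covariate and leaving out each library.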

Additional observations from a re-analysis of the deposited data

How the results depend on the processing

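By edgeR and by DESeq2, 0 members were called under every alternative tried. Over all colon genes DESeq2 called 14 and edgeR 0 under every other alternative; the cause was not tested. Of 44 genes followed, 38 kept their sign throughout, among them 20 of 26 members. With Xist status as a covariate, Sult1a1 stood at 0.011, Ugt1a7c at 0.063 and Ugt2b35 at 0.026 (log2). Leaving out 1 library moved Gsto1 between -0.041 and 0.021, Sult1d1 between -0.25 and 0.012, Ugt1a6a between -0.25 and 0.43, Ugt1a7c between -0.15 and 0.059 and Ugt2b35 between -0.14 and 0.10. Why these signs turned was not tested. Family medians, added as results after the data were seen, ran over the left-out libraries from -0.48 to -0.16 for CES (lowest without KO 1, highest without KO 3), from -0.25 to -0.072 for SULT, from -0.15 to 0.018 for UGT and from -0.036 to 0.071 for GST. Deviations of same-numbered KO and WT libraries from their group means showed no common sign (correlations -0.039, 0.21 and -0.23 over genes). So few values cannot settle whether the numbers pair the libraries. With a replicate block 0 genes were called. The medians were then -0.32 for CES, -0.17 for SULT, -0.053 for UGT and 0.0057 for GST. With 3 libraries a group, intervals of scarce members such as Ces1c span more than a 2-fold change either way.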
